A study of Mus musculus with 10 samples.

Results

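Genes that answer to glucocorticoids, or carry the hormone's signal, were followed in the brains of Slc20a2-HO mice given FTY720 or placebo: Sgk1, Fkbp5, Tsc22d3, Zbtb16, Cdkn1a, Pdk4, Mt1, Mt2, Sult1a1 and Nr3c1. All 10 were found by name among the 54532 genes of the count table. The set was chosen on results of these same mice, in which Sgk1 stood higher with FTY720, so their values for FTY720 against placebo are a description: counts past a threshold stand beside their share over all genes, and nothing is drawn from them. A filter on low counts kept 9 of the 10, and Mt2 was the gene it dropped.

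Glucocorticoids cross the cell membrane and bind the glucocorticoid receptor, the product of Nr3c1, which waits in the cytoplasm in a complex with heat shock proteins and immunophilins. The bound receptor enters the nucleus and acts on genes that carry its response element, a palindrome of hexamers. In the brain this system follows the daily rhythm and stress, and Fkbp5, Tsc22d3 and Sgk1 are widely used as readouts of receptor activity in neurons, glia and vessels.

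The mice were homozygous for a knockout of Slc20a2, a sodium-dependent phosphate transporter, and no wild type library was analysed here. FTY720 (fingolimod), a modulator of sphingosine-1-phosphate receptors, was dissolved in DMSO and injected intraperitoneally at 0.5 mg/kg, 3 times a week for 12 weeks from an age of 1.5 months, in 6 mice. The placebo group, 4 mice, received DMSO alone on the same schedule. The mice were perfused and RNA was prepared from brain tissue; a bulk sample cannot tell fewer cells of a type from less RNA per cell. Total counts were between 14772745 and 18303981 per mouse, and each member other than Mt2 had at least 135 counts in every mouse.

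The libraries carried divisions other than treatment. The name of each mouse has a digit, 1 or 3, after the letter for its group (F1-622, P3-904), and a number that begins with 6 or 9. The labels do not say what either stands for. The digit 3 was carried by 3 FTY720 and 3 placebo mice, and the digit 1 by 3 FTY720 mice and 1 placebo mouse. Markers of cerebellar granule cells, all 9 of them higher with the digit 3 (adjusted p under 0.05, edgeR), summed to between 149.7 and 169 CPM (counts scaled to the library size by TMM) in the 4 digit 1 libraries and to between 1171 and 1281 CPM in the 6 others. The number also separated the mice. Xist had 7742 to 17126 counts and the Y-linked Ddx3y 0 or 1 in the 4 mice with 9, against 1 to 71 and 934 to 1883 counts in the 6 with 6. Such counts mark female mice with 9 and male mice with 6, though the labels do not give the sex. The targeted gene Slc20a2 had 89 to 254 counts with FTY720 and 144 to 294 with placebo. Because of the digit, treatment values are also given among the 6 mice of the digit 3.

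The letters of the receptor's response element were looked for upstream of the members. The 250 bases before each annotated start were searched on both strands for the hexamer AGAACA, and for a palindrome in which AGAACA is followed, after 3 bases, by its reverse complement TGTTCT. Of 32851 RefSeq promoters of GRCm38.p6, 16.1% held the hexamer and 3 held the palindrome (0.00913%). One of those 3 was a start of Sgk1. The stretch before that start, chr10:21993640-21993889 on the plus strand, carries no annotated exon. It is shown with the palindrome in capitals, 189 to 175 bases before the start, and with a lone hexamer further upstream.
Sgk1: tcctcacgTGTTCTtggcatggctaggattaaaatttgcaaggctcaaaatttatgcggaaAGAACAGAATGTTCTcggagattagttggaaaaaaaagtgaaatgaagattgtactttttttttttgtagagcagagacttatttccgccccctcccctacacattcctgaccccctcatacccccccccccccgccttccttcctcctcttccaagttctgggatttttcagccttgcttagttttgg
Starts of 8 members were found in the promoter table, 16 in all, and Sgk1 had 6 of them. Hexamers without a palindrome stood before 2 other starts of Sgk1, before 1 of the 3 starts of Tsc22d3 and before the start of Sult1a1, where there were 2. The Sult1a1 stretch, chr7:126676433-126676668 on the minus strand, is shown with its hexamers in capitals. Sult1a1 was picked because, beside Sgk1, its treatment groups did not overlap among the mice with the digit 3, as in 12.9% of all genes. A link between treatment and these letters was not tested.
Sult1a1: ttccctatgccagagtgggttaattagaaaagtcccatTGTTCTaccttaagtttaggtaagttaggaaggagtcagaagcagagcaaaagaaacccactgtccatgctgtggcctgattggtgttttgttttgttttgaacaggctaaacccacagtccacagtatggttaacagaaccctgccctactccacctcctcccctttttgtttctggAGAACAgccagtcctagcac
The metallothionein genes Mt1 and Mt2 lie beside each other on chromosome 8 and answer to metals as well as to glucocorticoids. Their stretches were searched for the metal response motifs TGCGCNC and TGCACNC on both strands, which 21.4% of all promoters held at least once. Capitals mark them in chr8:94178839-94179081 (Mt1, 1 motif) and chr8:94172368-94172617 (Mt2, 3 motifs), both on the plus strand.
Mt1: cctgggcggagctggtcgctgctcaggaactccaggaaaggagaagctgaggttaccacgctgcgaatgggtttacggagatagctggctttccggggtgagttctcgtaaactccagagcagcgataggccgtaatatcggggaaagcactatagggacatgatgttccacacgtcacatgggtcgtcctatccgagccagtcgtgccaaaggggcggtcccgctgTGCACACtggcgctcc
Mt2: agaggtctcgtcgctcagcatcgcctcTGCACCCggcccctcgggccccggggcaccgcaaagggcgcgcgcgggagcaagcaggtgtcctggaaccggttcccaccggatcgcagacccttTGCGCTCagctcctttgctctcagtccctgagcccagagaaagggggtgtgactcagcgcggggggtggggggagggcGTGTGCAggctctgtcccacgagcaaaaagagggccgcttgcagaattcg
None of the windows searched before Fkbp5, Pdk4, Cdkn1a, Mt1 and Mt2 held the hexamer, which says only that these letters are not within them. A match is a description of the letters, and no binding was measured in this series.

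On the scale of FPKM, fragment counts per gene length and library size, which allows genes to be compared, Mt1 stood far above the rest at 201.5 ± 73.5 FPKM (SD, n = 10). Tsc22d3 (19.97 ± 2.62 FPKM), Sgk1 (18.2 ± 3.92) and Nr3c1 (15.3 ± 2.84) followed, and the ranges of these 3 genes over the mice overlapped. Sult1a1 lay between them and the low members at 7.83 ± 3.11 FPKM. Cdkn1a (4.21 ± 1.14), Fkbp5 (3.89 ± 1.21), Zbtb16 (3.73 ± 1.72) and Pdk4 (3.68 ± 0.578) were not separated by their spread. Mt2 was at 0.532 ± 0.491 FPKM, with 0 to 15 counts per mouse, far below its neighbour Mt1. An annotated antisense gene, Gm45774, shares 73.5% of the exon bases of Mt2 and had 3 to 16 counts. The reads of the pair cannot be told apart without a strand setting, which is not given in the sources used here. The low counts of Mt2 therefore cannot be read as low expression.

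Sgk1 (serum- and glucocorticoid-regulated kinase, chromosome 10, 21882184 to 21999903, plus strand) regulates ion channels and transporters. In the FTY720 group its level was 86.6, 104 and 123 CPM where the digit was 1 and 86.7, 98.8 and 103 CPM where it was 3. In the placebo group it was at 96.1 CPM in P1-623, the only placebo mouse with the digit 1, and at 68.0, 54.0 and 81.2 CPM in P3-612, P3-904 and P3-907. The 3 placebo mice with the digit 3 were thus the lowest of all 10, and P1-623 lay within the FTY720 group. The means were 100.2 ± 13.3 CPM (SD, n = 6) and 74.8 ± 18.0 CPM (SD, n = 4), a log2 fold change of 0.42 (SE 0.16, edgeR). It was 0.37 (SE 0.14) once the digit was fitted too. Among mice of the digit 3 it was 0.51 (SE 0.16), and there the groups did not overlap, as in 12.9% of all genes.

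Fkbp5 (chromosome 17, 28399094 to 28517527, minus strand) encodes a co-chaperone that lowers the receptor's affinity for its hormone and is induced by it, a feedback loop. It was at 50.5, 42.2 and 54.9 CPM in the FTY720 mice with the digit 1 and at 26.1, 29.0 and 45.6 CPM in those with the digit 3. The placebo mouse with the digit 1 had 45.5 CPM, and those with the digit 3 had 27.1, 25 and 26.6 CPM. The level followed the digit more than the treatment: of the mice with the digit 3, F3-908 alone reached the range of the digit 1. The log2 fold change for FTY720 over placebo was 0.42 (SE 0.24) over all mice, 0.27 (SE 0.15) with the digit as a covariate and 0.36 (SE 0.20) within the digit 3.

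Tsc22d3 (GILZ, chromosome X, 140539528 to 140600659, minus strand), the leucine zipper protein through which glucocorticoids restrain inflammation, had the smallest SD relative to its mean of the 10 genes. Its levels were 83.2, 81.9, 110.2, 77.8, 96.1 and 96.3 CPM in the FTY720 group and 92.4, 78.3, 70.8 and 89.1 CPM with placebo, and the groups overlapped. The log2 fold change was 0.14 (SE 0.12), and 0.10 (SE 0.14) within the digit 3. Zbtb16 (PLZF, chromosome 9, 48654297 to 48836222, minus strand), a transcriptional repressor, had the largest SD relative to its mean after Mt2, at 9.57, 26.4, 39.2, 15.1, 23.1 and 15.5 CPM with FTY720 and at 8.20, 17.3, 25.9 and 18.8 CPM with placebo. Both groups spanned low and high mice, and the log2 fold change of 0.29 (SE 0.37) fell to 0.03 (SE 0.35) within the digit 3.

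Cdkn1a (p21, chromosome 17, 29090976 to 29100727, plus strand), an inhibitor of cyclin-dependent kinases that p53 also induces, was at 16.8, 11.8, 22.2, 9.30, 12.9 and 21.1 CPM with FTY720 and at 12.7, 15.1, 12.5 and 16.6 CPM with placebo. The 2 highest mice, F1-918 and F3-908, were both FTY720 mice whose number begins with 9, and the lowest was an FTY720 mouse too. Its log2 fold change was 0.14 (SE 0.23) and 0.05 (SE 0.27) within the digit 3; an antisense gene with 0 to 6 counts shares 7.68% of its exon bases. Pdk4 (chromosome 6, 5483351 to 5496309, minus strand), which turns cells from glucose to fatty acid oxidation by inhibiting pyruvate dehydrogenase, kept within 10.3 and 16.1 CPM in all 10 mice, with a log2 fold change of 0.13 (SE 0.15), and 0.09 (SE 0.19) within the digit 3.

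Mt1 (chromosome 8, 94179082 to 94180327, plus strand), a zinc- and copper-binding metallothionein, ranged from 156 to 424 CPM with FTY720 (median 221, n = 6) and from 163 to 317 CPM with placebo (median 232, n = 4). F1-622 (424 CPM), F3-908 (389 CPM) and P3-612 (317 CPM) were high, and these 3 mice came from both groups and both digits. Its log2 fold change was 0.17 (SE 0.29), and 0.11 (SE 0.33) within the digit 3, both smaller than the standard error. It was 0.33 when the dependence of each library's counts on gene length was fitted, and 0.55 when the digit was fitted too. Sult1a1 (chromosome 7, 126672865 to 126676432, minus strand), a sulfotransferase of phenols, was at 15.2, 8.72 and 9.17 CPM in the FTY720 mice with the digit 1, where the placebo mouse had 14.9 CPM. In the digit 3 it was at 11.9, 10.1 and 23.3 CPM with FTY720 and at 9.86, 7.79 and 8.34 CPM with placebo. The groups there did not overlap, as in 12.9% of all genes, by a margin of 10.1 against 9.86 CPM. The log2 fold change was 0.35 (SE 0.29) over all mice and 0.80 (SE 0.30) within the digit 3, and over all mice it was 0.11 without F3-908, the highest mouse, and 0.59 without P1-623. Of its exon bases 4.05% are shared with Sgf29 on the other strand.

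Nr3c1, the receptor itself, was at 80.7, 131, 115, 143, 135 and 110.1 CPM with FTY720 and at 98.6, 89.4, 135 and 114 CPM with placebo. The groups overlapped across their ranges, and the log2 fold change was 0.13 (SE 0.16), and 0.17 (SE 0.14) within the digit 3. It was 0.0037 when the dependence of each library's counts on gene length was fitted, and -0.015 when the digit was fitted too.

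**Figure D1:**
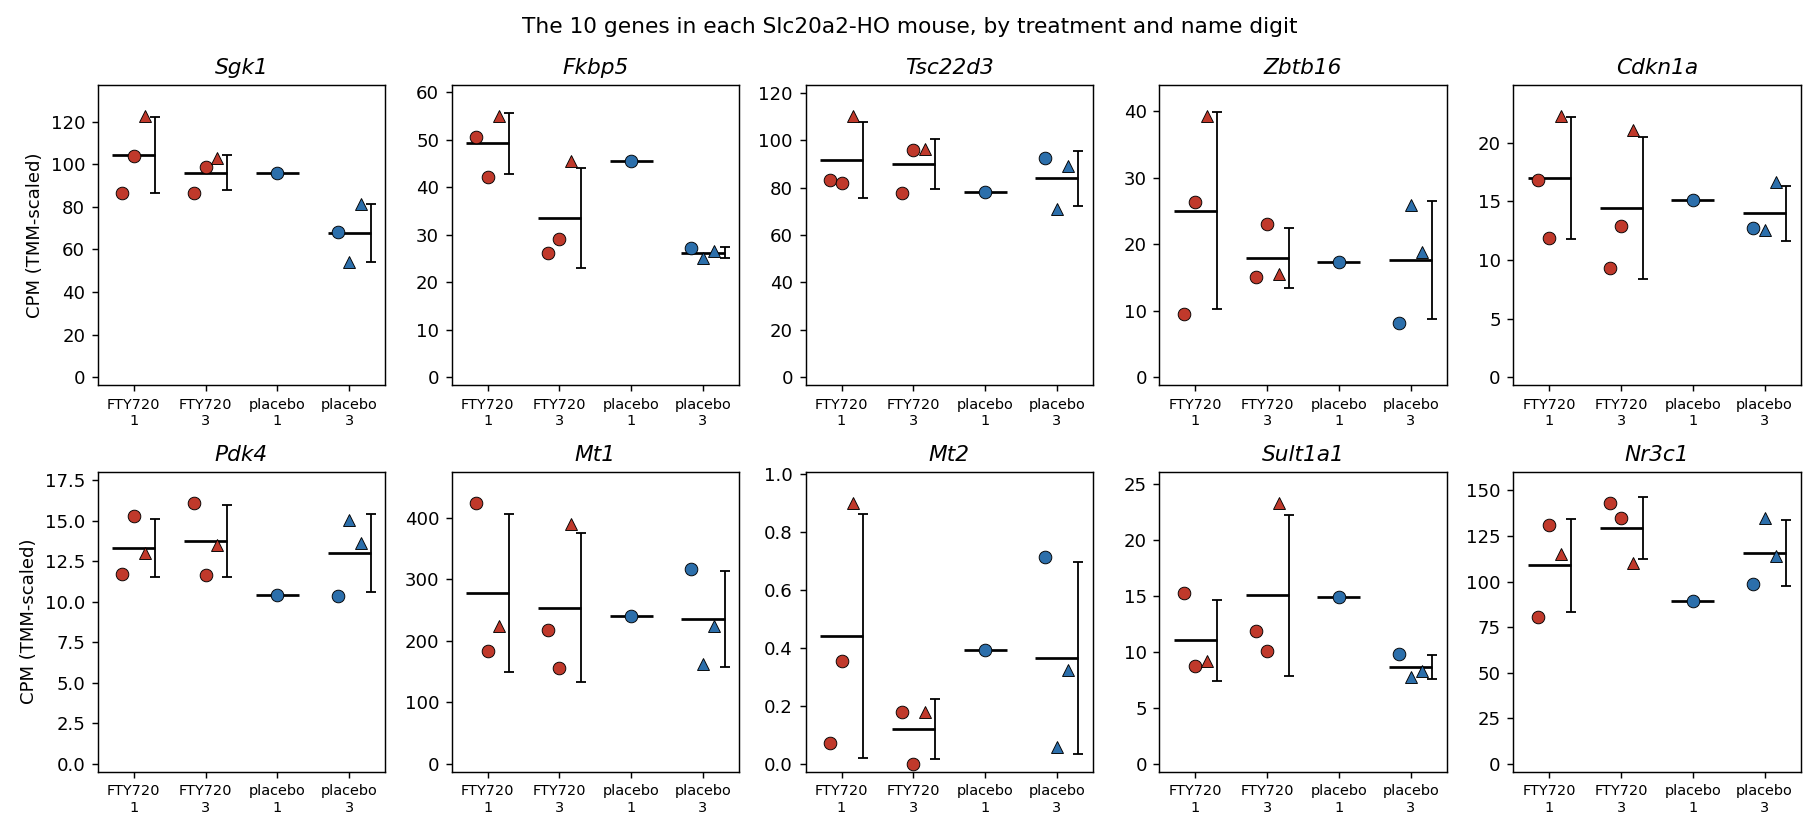
Level of each of the 10 genes (vertical axis, TMM-scaled CPM) in every mouse, by treatment and name digit (horizontal axis); red is FTY720 and blue placebo, circles are mice whose number begins with 6 and triangles 9, lines are means and bars the SD. Sgk1 is lowest in the 3 placebo mice with the digit 3 (54.0 to 81.2 CPM), Fkbp5 is lower with the digit 3 in both treatments, and the counted level of Mt2 is near 0.

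All 9 members kept by the filter had a log2 fold change above 0 for FTY720 over placebo, with a median of 0.17 where 49.4% of all 17665 genes were above 0. Sgk1 alone had an unadjusted p under 0.05, in a comparison that called 2.61% of all genes. No gene of the whole table passed an adjusted p of 0.05 by edgeR or by DESeq2, and 461 and 550 genes had an unadjusted p under 0.05. Sgk1 lost that threshold when P3-904 was left out (log2 fold change 0.29) and when P3-612 was (0.38), both placebo mice, while Fkbp5 gained it without P1-623 (0.66) and without F3-609 (0.52). Fkbp5 also gained it when gene length was fitted (0.55, where 7.79% of all genes had one) and when the digit was fitted too (0.40, where 15.6% had one). Within the digit 3, Sgk1 and Sult1a1 had an unadjusted p under 0.05, where 7.27% of all genes did, and were the members whose groups did not overlap, which 12.9% of all genes did not. Within the digit 3, a part of the same mice, all 9 members were above 0, with a median of 0.11. Of all genes there, 49.2% were above 0. The members were chosen on this contrast, and nothing is read from these counts.

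**Figure D2:**
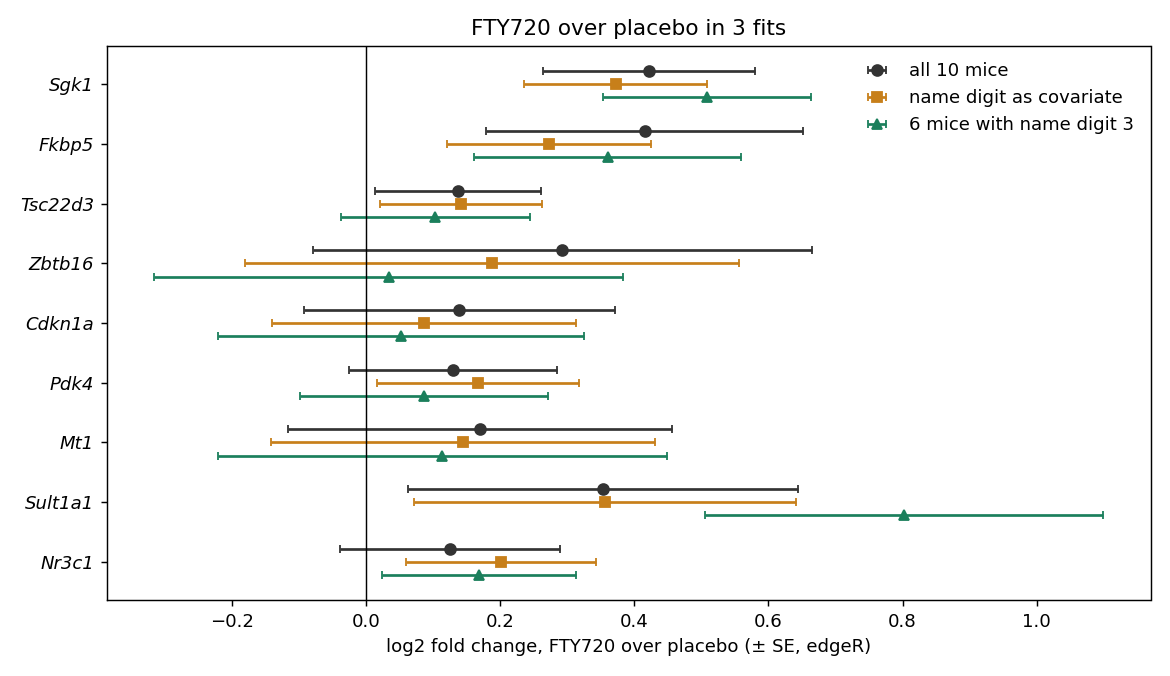
The log2 fold change of FTY720 over placebo (horizontal axis, ± SE from edgeR) of the 9 members tested, over all 10 mice, with the name digit fitted too, and among the 6 mice of the digit 3. Sgk1 stays between 0.37 and 0.51, Sult1a1 moves from 0.35 to 0.80 within the digit 3, and the bars of Zbtb16, Cdkn1a and Mt1 cross 0 in all 3 fits.

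The other genes of the pathway were counted in the same comparison. Of 22 other glucocorticoid targets 14 were above 0, as were 49.4% of all genes, with a median log2 fold change of 0.10. In this list Plin4 (1.0, SE 0.38), a coat protein of lipid droplets, and Mfsd2a (0.36, SE 0.15), the lipid transporter of the blood-brain barrier, had an unadjusted p under 0.05, as did 2.61% of all genes. Within the digit 3 these were Plin4 (1.37, SE 0.45) and Hif3a (1.08, SE 0.19), a hypoxia-inducible factor subunit. Of the 13 genes of the receptor machinery (heat shock proteins, co-chaperones, coregulators, the mineralocorticoid receptor and Hsd11b1) 0 had an unadjusted p under 0.05 over all mice, and within the digit 3 there was 1, Fkbp4 (-0.38, SE 0.14), another immunophilin of the receptor complex. Of 16 relatives of the members tested, 9 p53 targets and 9 fatty acid targets of PPAR, which share inducers with Cdkn1a and Pdk4, 0 had an unadjusted p under 0.05 over all mice. With the digit as a covariate, where 12.8% of all genes had one, there were 5 of 9 p53 targets (2 above 0 and 3 below), 2 of 9 fatty acid targets, 1 of 16 relatives, 2 of 13 genes of the receptor machinery, 3 of 22 other glucocorticoid targets and 1 of 9 members. Within the digit 3, 1 relative, 1 p53 target and 1 fatty acid target had an unadjusted p under 0.05. They were the metallothionein Mt3 (-0.66, SE 0.28), the p53 target Trp53inp1 (0.36, SE 0.15) and the peroxisomal enzyme Ehhadh (0.49, SE 0.20). These counts stand beside the 7.27% of all genes with an unadjusted p under 0.05 there, and no gene passed an adjusted p of 0.05 by edgeR.

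Summed markers of some cell types also differed in level between the groups, with 0 markers past an adjusted p of 0.05 by edgeR. The 8 endothelial markers summed to between 175 and 289.8 CPM with FTY720 and between 157 and 185 CPM with placebo, and none of the 8 was at 0. Pecam1 (0.43), Ly6c1 (0.46) and Slco1a4 (0.61) had an unadjusted p under 0.05, against 2.61% of all genes; there were 7 of 8 with the digit as a covariate (12.8% of all genes) and 5 of 8 within the digit 3 (7.27%). Over all mice 7 of the 8 log2 fold changes were above 0 with a median of 0.40; Cldn5, a tight junction gene, was at -0.19, and at -0.30 within the digit 3. Within the digit 3 the sums were 220.2 to 289.8 CPM against 177 to 185 CPM. The 8 oligodendrocyte markers summed to 5694 to 6611 CPM with FTY720 and 6461 to 7549 CPM with placebo, with Mbp (-0.29), Mag (-0.46) and Cnp (-0.35) at an unadjusted p under 0.05; within the digit 3 the sums were 5744 to 5915 CPM against 6641 to 7549 CPM. Microglia markers overlapped over all mice (239.6 to 425 CPM with FTY720, 284 to 392.03 CPM with placebo), with 0 of 8 at an unadjusted p under 0.05, while within the digit 3 there were 3 and the sums were 239.6 to 276 against 284 to 334 CPM. The part of these cells in the levels of Sgk1 and Mfsd2a was not tested.

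The digit was not used to choose the members, so the difference between the digits was tested, with treatment as a covariate. Fkbp5 was lower with the digit 3, 29.9 ± 7.81 CPM (SD, n = 6) against 48.3 ± 5.62 CPM (SD, n = 4), a log2 fold change of -0.63 (SE 0.15, adjusted p = 0.00886 by edgeR). It was the only member of 9 past an adjusted p of 0.05, in a comparison where 28.4% of all genes passed, 14.4% of all genes lower and 13.9% higher with the digit 3. The call did not hold without P1-623 (-0.56, adjusted p = 0.0697 from edgeR) or among the FTY720 mice alone, 3 against 3 (-0.53, adjusted p = 0.0730 from edgeR), nor when the dependence of each library's counts on gene length was fitted (-0.41, adjusted p = 0.0753 from edgeR). Sgk1 (-0.25, SE 0.13, adjusted p = 0.175 from edgeR) and Nr3c1 (0.29, SE 0.14, adjusted p = 0.141 from edgeR) did not pass, and the log2 fold changes of the other members lay between -0.32 and 0.13. With gene length fitted, Zbtb16 (-1.12, adjusted p = 0.0231 from edgeR) and Mt1 (0.64, adjusted p = 0.0158 from edgeR) passed, against -0.32 and -0.10 without it. In that fit, added after seeing the data, 19.3% of all genes passed.

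Of the 22 other glucocorticoid targets, 9 were lower with the digit 3 at an adjusted p under 0.05, where 14.4% of all genes were, and 0 were higher, where 13.9% were. In all 18 had a log2 fold change below 0 and 4 (Bcl6, Lcn2, Fam107a and Klf9) above, with a median log2 fold change of -0.26 against -0.01 over all genes. The phosphatase gene Dusp1 was at 23.5 CPM with the digit 3 and 47.2 CPM with the digit 1 (log2 fold change -1.06, SE 0.20, adjusted p = 0.00304 from edgeR), and the transcription factor Cebpd at 4.54 and 8.57 CPM (-0.999, SE 0.26, adjusted p = 0.0144 from edgeR). The others past the threshold were Per1, Rasd1, Ddit4, Rhob, Klf15, Nfkbia and Glul. In the receptor machinery, Hsd11b1, the enzyme that regenerates active glucocorticoid, was higher with the digit 3 (0.76, SE 0.12, adjusted p = 0.000802 from edgeR), while the chaperone genes Bag1 (-0.52, SE 0.15) and Hsp90ab1 (-0.32, SE 0.09) were lower, and the remaining 10 of the 13 did not pass.

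In the other lists the calls made up 6 of 16 relatives, 3 of 9 p53 targets and 2 of 9 fatty acid targets, beside 28.4% of all genes. Among the relatives of the members, 2 were higher with the digit 3, the cell cycle inhibitor Cdkn1b (0.56, SE 0.09) and the kinase Sgk3 (0.42, SE 0.11), and 4 were lower, among them the brain metallothionein Mt3 (-0.94, SE 0.28) and Cdkn1c (-0.69, SE 0.17). Of the p53 targets, Trp53inp1 (0.37, SE 0.13) was higher, and Bbc3 (-0.74, SE 0.21) and Sesn2 (-0.48, SE 0.14) lower. Of the fatty acid targets, Ehhadh (0.52, SE 0.18) was higher and Acot1 (-0.71, SE 0.16) lower. Cell markers moved with the digit as well: besides the granule cell genes, 6 of 8 microglia markers and 6 of 8 markers of cortex and hippocampus were lower with the digit 3 at an adjusted p under 0.05. The microglia markers together reached 346 to 425 CPM in digit 1 libraries, against 239.6 to 334 CPM in the others. The tissue held in each sample cannot be told apart in these data from the level of Fkbp5, or of the other genes that differed between the digits.

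**Figure D3:**
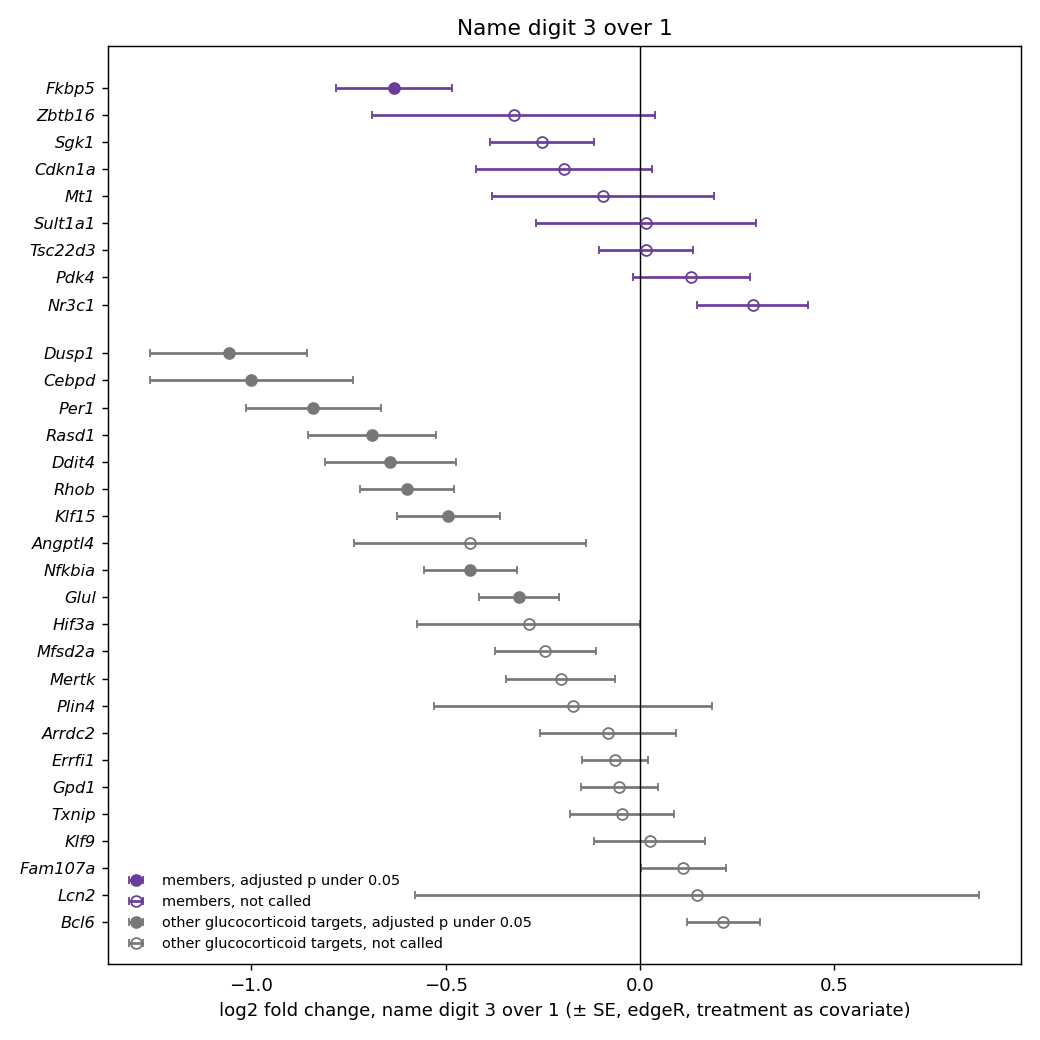
The log2 fold change between name digits, 3 over 1 (horizontal axis, ± SE from edgeR with treatment as a covariate), of the 9 members tested (purple) and 22 other glucocorticoid targets (grey); filled points passed an adjusted p of 0.05. Fkbp5 (-0.63) is the filled member, and all 9 filled targets lie below 0, from Dusp1 (-1.06) to Glul (-0.31).

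The mice whose number begins with 9 had Xist and those with 6 had Y-linked counts, and the members were compared between them with treatment and digit as covariates. All 9 tested had a log2 fold change above 0 for 9 over 6, Mt1 by only 0.0017, as did 53.3% of all genes. Cdkn1a (log2 fold change 0.56, SE 0.17) and Zbtb16 (0.72, SE 0.31) had an unadjusted p under 0.05, where 1.62% of all genes did. No member passed an adjusted p of 0.05 (adjusted p = 0.9999 for each from edgeR), against 0.034% of all genes. Cdkn1a was higher with 9 in the FTY720 mice of both digits (22.2 CPM against 16.8 and 11.8 CPM, and 21.1 CPM against 9.30 and 12.9 CPM), and less clearly with placebo in the digit 3 (12.5 and 16.6 CPM against 12.7 CPM). Zbtb16 was highest in F1-918, at 39.2 CPM, but F3-908 had 15.5 CPM beside 15.1 and 23.1 CPM.

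Whether FTY720 and placebo differed unequally between the digits was asked by an interaction term. Sult1a1 had the largest, 1.24 (SE 0.52), and was the 1 member with an unadjusted p under 0.05, as 1.95% of all genes had; no gene passed an adjusted p of 0.05 by edgeR. The other members ranged from -0.52 (Zbtb16) to 0.38 (Sgk1). With 1 placebo mouse in the digit 1, this term rests on that mouse, P1-623, for every member.

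Sgk1 was then set against each of the other 9 members across mice, on log2 CPM. Over all 10 mice the closest was Fkbp5 (Pearson r = 0.72, permutation p = 0.0124, adjusted over the 9 relations 0.112; Spearman rho = 0.68, permutation p = 0.0346, adjusted 0.311). That value carries the difference of Fkbp5 between the digits. Among mice of the digit 3 its r was 0.64, in 6 mice (exact permutation p = 0.176, adjusted 0.529) and rho = 0.77 (exact permutation p = 0.103, adjusted 0.308). Tsc22d3 came next with r = 0.63 over 10 mice (permutation p = 0.0525, adjusted 0.236) and 0.71 within the digit 3 (exact permutation p = 0.111, adjusted 0.529). No relation passed an adjusted p of 0.05 in either set of mice, and both sets still hold the treatment contrast on which the members were chosen.

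Some of the relations depended on which mice were included. The r with Fkbp5 lay between 0.63 and 0.79 with any 1 mouse left out. P3-904, the lowest in Sgk1, and F1-918, the highest, lay farthest from the median of Sgk1. Without both, r fell to 0.56 for Fkbp5 and to -0.07 for Tsc22d3, so that the latter rests on those 2 mice. Zbtb16, with r = 0.36 over all mice, reached r = 0.84 without P3-904 alone (9 mice, exact permutation p = 0.00539, adjusted 0.0485) but -0.03 within the digit 3. In residuals after treatment and digit were fitted, which carry no p, r was 0.66 for Tsc22d3, 0.49 for the sparse Mt2, 0.45 for Cdkn1a, 0.42 for Fkbp5, 0.26 for Zbtb16 and 0.20 for Sult1a1, and below 0 for Mt1, Pdk4 and Nr3c1. Summed cell markers moved with these residuals as well: neuron markers had r = -0.90 with Sgk1 and -0.70 with Tsc22d3, and oligodendrocyte markers 0.31 and 0.73, of 9 marker lists looked at. Their part in the likeness of Sgk1 and Tsc22d3 was not tested.

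For the remaining members, the r with Sgk1 over the 10 mice was 0.45 with Cdkn1a, 0.34 with Sult1a1, 0.27 with the sparse Mt2, 0.10 with Mt1, -0.05 with Pdk4 and -0.06 with Nr3c1, all with an unadjusted permutation p above 0.05. Within the digit 3, Sult1a1 had r = 0.67 and rho = 0.89 with Sgk1, but both genes have the treatment groups apart there, the contrast that the members were chosen on, and its r was 0.20 in residuals after treatment and digit. Of all genes tested, 0.374% had an r with Sgk1 as high as that of Fkbp5 over 10 mice, 5.34% within the digit 3 and 15.05% in those residuals.

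**Figure D4:**
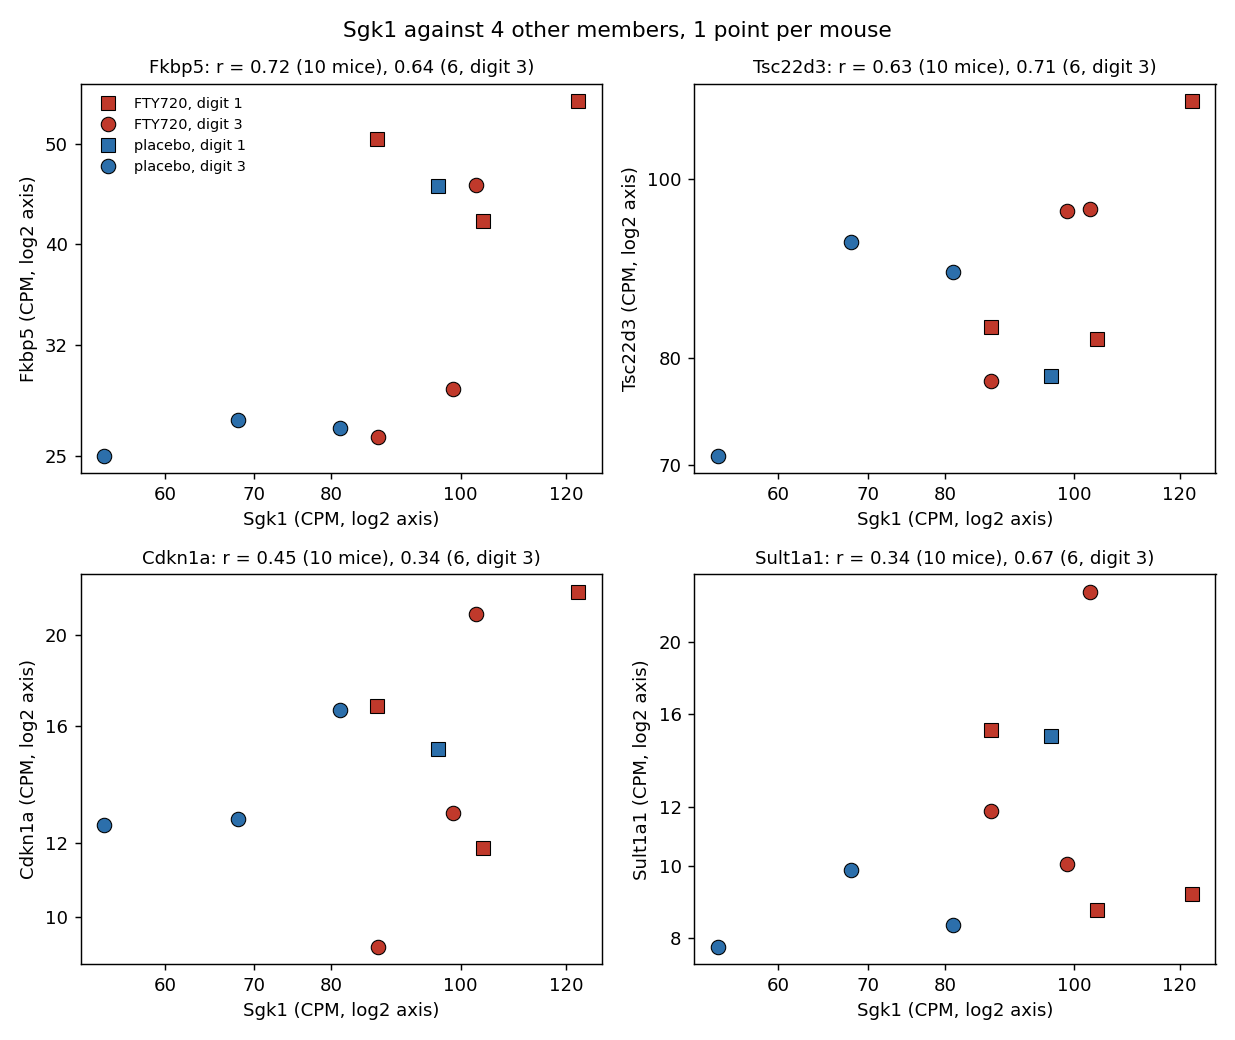
Sgk1 (horizontal axis, CPM on a log2 axis) against Fkbp5, Tsc22d3, Cdkn1a and Sult1a1 (vertical axes, CPM on a log2 axis), with 1 point per mouse; squares are the name digit 1 and circles 3, red is FTY720 and blue placebo. The panel of Fkbp5 shows the digits apart (r = 0.72 over 10 mice, 0.64 within the digit 3), and in that of Tsc22d3 the lowest and the highest mouse of Sgk1 carry the slope.

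The genes most like Sgk1 were sought among 14783 protein-coding genes by the r of residuals after treatment and digit, over 10 mice. The 10 closest were Ring1 (0.95), Mafk (0.94), Plekhf1 (0.92), Lonp1 (0.92), Eml3 (0.92), Actr5 (0.92), C130074G19Rik (0.91), Polr3e (0.91), Cc2d1a (0.91) and Tgif2 (0.90). None of the other members was among them, and the nearest, Tsc22d3, ranked 543. Likeness in residuals was not likeness in levels: Polr3e had r = 0.85 with Sgk1 over the 10 mice and 0.96 within the digit 3, and Mafk 0.65 and 0.44, but Ring1 had -0.15 and -0.37.

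Across all 45 pairs of members, chosen for attention after their values were seen, 0 passed an adjusted p of 0.05 for r. Among the 36 pairs without Mt2, 22 had r above 0 and the median r was 0.19. The strongest pair was opposite in sign, Mt1 with Nr3c1 (r = -0.77, permutation p = 0.0110, adjusted over 45 pairs 0.188; rho = -0.88, permutation p = 0.00154, adjusted 0.0693), and r was -0.73 without the 2 mice farthest from the median of Mt1 and -0.77 within the digit 3 (exact permutation p = 0.0903). Nr3c1 went with Pdk4, with r = 0.74 (permutation p = 0.0161) and 0.62 without the 2 mice farthest from the median of Pdk4. Mt1 went with Sult1a1 (r = 0.73, permutation p = 0.0167), but r was 0.34 without the 2 mice farthest from the median of Mt1, so that this pair rests on them. Zbtb16 and Mt1 were opposite in sign (r = -0.71, permutation p = 0.0230; -0.79 in residuals after treatment and digit, and -0.87 without the 2 mice farthest from the median of Zbtb16). Fkbp5 went with Cdkn1a (r = 0.68, permutation p = 0.0331, 0.87 in residuals after treatment and digit, and 0.51 without the 2 mice farthest from the median of Fkbp5). Within the digit 3, Fkbp5 and Tsc22d3 ranked the 6 mice in the same order (rho = 1, exact permutation p = 0.00278, the smallest that 6 mice can give; adjusted over 45 pairs 0.125), while their r was 0.59.

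Several of these pairs moved with a property of the libraries. For each mouse, the deviation of log2 CPM from the mean over mice was regressed on log2 gene length over 14784 protein-coding genes, and the slope ran from -0.17 to 0.17 per doubling of length. Nr3c1 (7425 bases) followed that slope with r = 0.94 over 10 mice (permutation p = 0.00013, adjusted over the 10 members 0.0013; rho = 0.94, permutation p = 0.00022), 0.92 without the 2 mice farthest from the median slope and 0.98 within the digit 3 (exact permutation p = 0.00833, adjusted 0.0833). Pdk4 (r = 0.72, adjusted permutation p = 0.0938) went the same way and the short Mt1 (1246 bases; r = -0.69, adjusted permutation p = 0.0938) the other way. Of all those genes, 6.45% followed the slope as closely as Nr3c1 in either sign, and 40.2% as closely as Mt1.

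Sgk1 did not follow the slope (r = -0.17, permutation p = 0.652). After the slope was fitted, r was -0.45 for Mt1 with Nr3c1 and 0.25 for Pdk4 with Nr3c1, but 0.75 for Mt1 with Sult1a1, 0.76 for Sgk1 with Fkbp5 and 0.61 for Sgk1 with Tsc22d3. The slope had a median of 0.02 with FTY720 and -0.08 with placebo, and of -0.10 with the digit 1 and 0.08 with the digit 3. What sets it, such as RNA quality or tissue, was not tested.

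**Figure D5:**
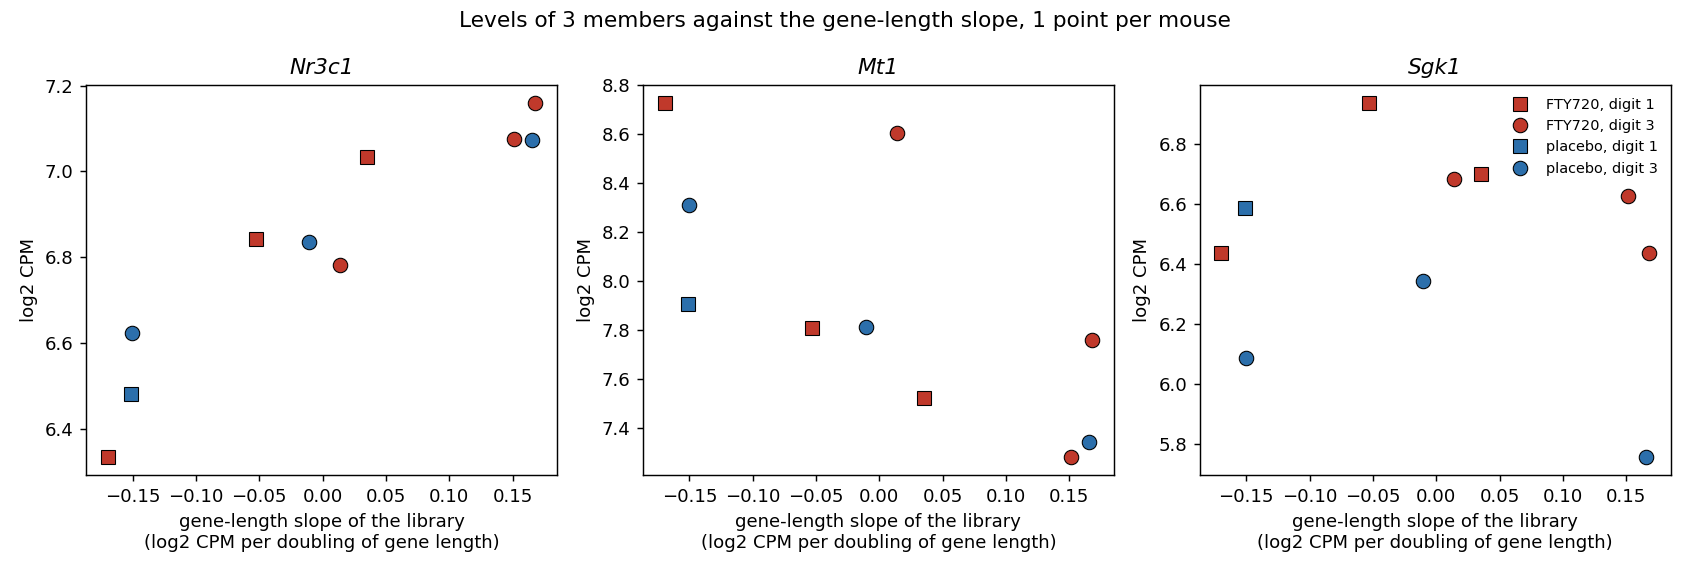
Log2 CPM of Nr3c1, Mt1 and Sgk1 (vertical axes) against the gene-length slope of each library (horizontal axis, log2 CPM per doubling of gene length), with 1 point per mouse; squares are the name digit 1 and circles 3, red is FTY720 and blue placebo. Nr3c1 climbs with the slope (r = 0.94), Mt1 falls with it (r = -0.69) and Sgk1 shows no trend (r = -0.17).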

How the data were processed

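RNA-seq of brain from 10 Slc20a2-HO mice was used, 6 with FTY720 and 4 with placebo. Per the labels, the authors called bases with CASAVA 1.8, cleaned reads with fastp, aligned them to GRCm38/mm10 with HISAT2 2.0.5 and counted them with featureCounts 1.5.0-p3; the processing notes also name DESeq2 1.20.0. The annotation release and strand setting are not given in the sources used here. The authors deposited whole-number counts per gene, not normalized, and FPKM values. Starting from the counts, filterByExpr kept 17665 of 54532 genes, TMM scaling was applied, and the quasi-likelihood test of edgeR 4.0.16 (R 4.3.3) was run with Benjamini-Hochberg adjustment over all genes tested. FTY720 against placebo had no covariate, the name digit had treatment, and the number had both. Standard errors are the log2 fold change over the square root of F. Log2 CPM for correlations used a prior count of 2; permutation p-values are two-sided, from 100000 resamples with 10 mice and exact with fewer.

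The members and gene lists were chosen with earlier results of these data known. By rule, the text names every member, list genes with an unadjusted p under 0.05 for FTY720 against placebo, the 2 largest changes per direction and list between digits, and the 10 genes most like Sgk1; the other targets past the digit threshold were named after their values were seen. Alternatives were DESeq2 1.42.0, RLE or upper-quartile scaling, other count filters, limma 3.58.1 (voom, or log2(FPKM + 0.1) and log2(FPKM + 1)), each mouse left out, other covariates and the digit 3 alone; the gene-length slope was added after seeing the data. The pipeline was tested on simulated data. The labels do not say how the mice relate beyond their groups, so p-values measure the spread between these mice. All 45 pairs of libraries differed by more than sampling noise (lowest chi-square 16.1 per degree of freedom). Coordinates are those of the deposited table; sequences are from RefSeq, GRCm38.p6.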

Additional observations from a re-analysis of the deposited data

Results flagged for a closer look

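Fkbp5 in the placebo group was flagged because 1 mouse stood far from the others: P1-623 had 45.5 CPM, while the other 3 had 25 to 27.1 CPM. P1-623 is the placebo mouse with the name digit 1, and the 3 FTY720 mice with that digit had 42.2 to 54.9 CPM. It was the 1 flag among 20 groups looked at, 10 genes in 2 groups, and chance flags about 1 group in 20.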

How the results depend on the processing

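The count of members with an unadjusted p under 0.05 for FTY720 against placebo (1, Sgk1) was 2 among the mice with the digit 3 alone, 2 with the gene-length slope as a covariate and 5 (Sgk1, Fkbp5, Tsc22d3, Mt1 and Sult1a1) with the digit and the slope, where 7.27%, 7.79% and 15.6% of all genes had one. Leaving out 1 mouse gave 0 to 2, with 0 without P3-612 or P3-904 and 2 without F3-609 or P1-623. Sgk1 itself lay between 0.29 and 0.57 in 23 alternatives and passed that threshold in 21; Zbtb16 (-0.24), Mt1 (-0.0075) and Nr3c1 (-0.015) each fell below 0 in 1 alternative. Between the digits, 1 member (Fkbp5) passed an adjusted p of 0.05, against 0 to 1 with 1 mouse left out (0 without P1-623), 0 among the FTY720 mice alone and 2 (Zbtb16 and Mt1) with the slope. Of all genes 28.4% passed in the main fit, 14.4% without P1-623, 18.9% among the FTY720 mice alone and 19.3% with the slope. Fkbp5 passed in 19 of 22 alternatives and lay between -0.82 and -0.41 over all 22. For the number, 0 members became 1 (Zbtb16) with no filter, where 0.0857% of all genes passed. The unadjusted p of Zbtb16 for the number rose above 0.05 with DESeq2. It also did when F1-918 (log2 fold change 0.49), F3-609, P3-612, P1-623 or P3-904 was left out. It stayed under 0.05 with RLE scaling and with each other mouse left out. For Sgk1 against the other members, 0 relations passed an adjusted p of 0.05, and 0 to 1 with 1 mouse left out.

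Log2 fold changes between the digits that lay near 0 turned sign. Tsc22d3 was -0.0041 with no filter, -0.022 with no treatment covariate, -0.0065 with the number as a covariate, -0.0062 among FTY720 mice alone and -0.030 to 0.12 with 1 mouse left out. Sult1a1 was -0.0028 with no filter, -0.016 with no treatment covariate, -0.0028 with the number and -0.32 to 0.45 with 1 mouse left out. With the slope, Cdkn1a was 0.094, Pdk4 -0.12, Mt1 0.64 and Nr3c1 -0.045. With 1 mouse left out, Zbtb16 ranged from -0.56 to 0.0064 and Mt1 from -0.37 to 0.18. The r with Sgk1 turned sign for Tsc22d3 (-0.074), Pdk4 (0.35), Mt1 (-0.29), Mt2 (-0.48) and Nr3c1 (0.29) without the 2 mice farthest in Sgk1, for Zbtb16 (-0.026), Mt2 (-0.18) and Nr3c1 (0.018) within the digit 3, and for Mt1 in residuals (-0.029). With 1 mouse left out, r ranged from -0.31 to 0.31 for Pdk4, -0.30 to 0.24 for Mt1 and -0.18 to 0.27 for Nr3c1. The causes were not tested. The sparse counts of Mt2 limit what can be said of it, and 1 placebo mouse with the digit 1 limits every comparison across digits.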
